A study of Mus musculus with 16 samples.

Results

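Ints7, Tatdn3, Nsl1, Catspere1 and Catspere2 are 5 genes in 2 neighbourhoods of distal mouse chromosome 1, examined here in cerebral cortex by RNA sequencing. They make up 5 of the 55573 gene IDs in the count table and were picked by name because cortical levels around them had been seen to differ between the Hq stock and the Aifm1 stock in these same libraries. Their values in the comparisons between stocks are therefore given as a description, with no test. The libraries of the 2 stocks did not overlap for Ints7, Tatdn3, Catspere1 and Catspere2, in wild types or in mutants. For Nsl1 they overlapped in both.

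The 16 libraries fall into 4 groups of 4. Hq-mut are mice carrying the Harlequin mutation of Aifm1 on the stock given as B6CBACa Aw-J/A-Aifm1Hq/J, and Hq-WT are their wild-type littermates. Aifm1-KI are mice with a knock-in allele that deletes R200 of the Aifm1 protein, and Aifm1-WT are their wild-type littermates. All mice were untreated and were around postnatal day 180, and the labels enter the strain of every sample, Hq stock included, as C57BL/6. The labels do not say whether each library is a separate mouse, so spreads and p-values describe these libraries and may be technical. No library was shared between the stocks, so that stock, colony and any batch of dissection or library preparation cannot be told apart. Total counts ran from 10671580 (Hq-WT 3) to 32551594 (Aifm1-KI 2), and with 3 counts as the limit for a count of 0, levels below 0.277 and 0.0876 CPM could go unseen in them, by counting error alone. CPM are read counts scaled to a common library size over all 16 libraries. Aifm1, the mutated gene, averaged 3.32 ± 0.791 CPM in Hq-mut and 23.9 ± 1.25 CPM in Hq-WT (SD, n = 4 each), and 23.7 ± 1.84 CPM in Aifm1-KI and 22.7 ± 0.812 CPM in Aifm1-WT (SD, n = 4 each). Gene counts do not show the deleted codon and so check nothing in the knock-in. Markers of cortical excitatory neurons summed to between 1328 and 2591 CPM in every library, and some libraries also held transcripts of neighbouring or distant tissue: striatal markers summed to 294 CPM in Hq-mut 3 and up to 205 CPM in Aifm1-KI, against 71.1 to 106 CPM in Hq-WT and 78.3 to 85.9 CPM in Aifm1-WT, choroid plexus markers reached 5438 CPM in Hq-WT 2 and 2762 CPM in Aifm1-KI 2, and Aifm1-WT 1 and 2 held 213 and 244 CPM of 6 liver transcripts in sum.

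The members belong to unrelated machineries. Ints7 encodes a subunit of Integrator, the nuclear complex that cuts the 3′ ends of small nuclear RNAs and terminates transcription at many genes. Tatdn3 encodes a member of the TatD family of metal-dependent deoxyribonucleases. Nsl1 encodes a subunit of the MIS12 complex, part of the KMN network that joins centromeres to spindle microtubules in dividing cells. Catspere1 and Catspere2 are the mouse copies of the epsilon auxiliary subunit of CatSper, the calcium channel of the sperm tail. Dtl, which shares a start region with Ints7, encodes the substrate receptor of a cullin ubiquitin ligase that acts in S phase.

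All 5 genes lie on chromosome 1 (GRCm38, GENCODE M21). Catspere1 (ENSMUSG00000102483, plus strand, 177808550 to 177962233) is annotated by GENCODE as an unprocessed pseudogene and by RefSeq as protein-coding. Catspere2 (ENSMUSG00000091476, protein-coding, plus strand, 177983423 to 178172704) begins 21189 bases beyond its end. At a distance of 12873121 bases from Catspere2 lie Tatdn3 (ENSMUSG00000026632, protein-coding, minus strand, 191045826 to 191062932) and Nsl1 (ENSMUSG00000062510, protein-coding, plus strand, 191063012 to 191086474). These are a divergent pair, with starts 80 bases apart. Ints7 (ENSMUSG00000037461, protein-coding, plus strand, 191575636 to 191623688) follows after a further 489161 bases and is in turn divergent from Dtl, whose start is 92 bases away.

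The start regions are printed because the members' partners share them: at the Ints7 and Tatdn3 starts the partner gene begins inside the same 300 bases. RefSeq promoter windows (GRCm38.p6, 250 bases before to 50 after the start) were found for 4 of the 5 members, and Nsl1 was without an entry. The Ints7 and Tatdn3 windows lie at the GENCODE gene starts. In the next lines capitals mark matches to any of 6 short motifs searched on both strands, chosen after the sequences had been seen.
Ints7, chr1:191575386-191575685, plus strand: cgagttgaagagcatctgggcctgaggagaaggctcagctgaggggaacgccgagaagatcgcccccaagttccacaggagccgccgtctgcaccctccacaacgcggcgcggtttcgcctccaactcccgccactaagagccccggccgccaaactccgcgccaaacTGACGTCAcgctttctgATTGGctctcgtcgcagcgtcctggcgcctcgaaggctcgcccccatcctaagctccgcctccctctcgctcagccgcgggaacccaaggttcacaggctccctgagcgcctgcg
Tatdn3, chr1:191062883-191063182, minus strand: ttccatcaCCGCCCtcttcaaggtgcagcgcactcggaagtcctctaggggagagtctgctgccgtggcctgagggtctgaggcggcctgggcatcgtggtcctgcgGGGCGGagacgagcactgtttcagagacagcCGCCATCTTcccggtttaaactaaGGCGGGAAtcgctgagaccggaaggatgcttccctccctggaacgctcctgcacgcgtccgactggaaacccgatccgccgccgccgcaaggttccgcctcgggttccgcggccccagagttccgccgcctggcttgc
The Ints7 window held TGACGTCA (the cyclic AMP response element) at bases 169 to 176, which 1.79% of 32851 RefSeq promoter windows of the same length held, and CCAAT on the reverse strand at bases 186 to 190, found in 37.4% of them. Dtl starts at base 159 of this window, so that both runs of letters also stand in the Dtl window. The Tatdn3 window held GGGCGG (GC box, 35.7% of windows) at bases 9 to 14 on the reverse strand and at 108 to 113, AAGATGGCG (YY1, 1.40%) on the reverse strand at 139 to 147, and GGCGGGAA (E2F, 2.19%) at 163 to 170. Nsl1 starts at base 171 of it. TATAAA (13.6% of windows) had no match in either window, and none of the matches overlapped. A match is a run of letters only. Both windows were rich in G and C, at 66.0% for Ints7 and 65.7% for Tatdn3, against a median of 52.7% over all windows.

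The Catspere copies are shown because their near identity bears on how their reads can be counted. The RefSeq start used for Catspere1 (177808419) lies shortly before the GENCODE gene start, and that used for Catspere2 (177991398) lies 7975 bases inside the gene, so the Catspere2 window is not at the gene start given above. Capitals here mark bases that differ between the aligned windows or stand in only 1 of them.
Catspere1, chr1:177808169-177808468, plus strand: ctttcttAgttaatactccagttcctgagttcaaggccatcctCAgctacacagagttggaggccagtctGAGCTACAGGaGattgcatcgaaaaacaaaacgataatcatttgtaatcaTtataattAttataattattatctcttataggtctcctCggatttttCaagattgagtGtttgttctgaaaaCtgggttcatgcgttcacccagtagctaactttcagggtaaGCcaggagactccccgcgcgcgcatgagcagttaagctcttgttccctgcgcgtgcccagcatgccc
Catspere2, chr1:177991148-177991447, plus strand: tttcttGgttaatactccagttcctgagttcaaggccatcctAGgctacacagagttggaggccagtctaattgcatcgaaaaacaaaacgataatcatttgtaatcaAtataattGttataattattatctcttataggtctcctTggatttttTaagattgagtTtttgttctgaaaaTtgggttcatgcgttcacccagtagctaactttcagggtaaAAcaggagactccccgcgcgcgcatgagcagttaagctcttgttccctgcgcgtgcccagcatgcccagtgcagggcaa
Of 288 aligned bases, 277 (96.2%) were identical, 11 were substituted and 11 more stood only in Catspere1. The only motif match was CCAAT on the reverse strand at bases 180 to 184 of Catspere2. The windows held 44.3% (Catspere1) and 42.7% (Catspere2) G and C. The Catspere1 transcript and the longest Catspere2 transcript aligned with 2729 of 2925 bases identical (93.3%). With reads of 51 bases, 715 of the 2899 possible 51-base words of Catspere1 (24.7%) also occur in Catspere2, where they are 13.6% of 5274 words, so that reads from those stretches cannot be assigned to either copy. Tatdn3 shares 0 of 2872 such words with any other gene, Ints7 29 of 7407 (0.392%) and Nsl1 94 of 5252 (1.79%).

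In wild types, Ints7 and Tatdn3 were lower and both Catspere copies were higher in the Hq stock. Since the members were chosen on differences between the stocks, that 4 of the 5 are among the 101 of 18106 genes (0.558%) with an edgeR adjusted p under 0.05 is part of their choice and no test of them. Ints7 was at 25.5, 27.0, 27.6 and 29.0 CPM in Hq-WT 1 to 4, against 54.1, 56.2, 55.0 and 51.7 CPM in Aifm1-WT 1 to 4. The groups did not overlap and each was narrow. The log2 fold change was -0.999 (SE 0.08), a level 1.998-fold lower in Hq-WT. Tatdn3 stood at 8.54, 9.76, 9.24 and 7.38 CPM in Hq-WT 1 to 4 and at 16.8, 21.2, 21.1 and 18.2 CPM in Aifm1-WT 1 to 4. Again every Hq-WT library was below every Aifm1-WT library, with a log2 fold change of -1.16 (SE 0.12), or 2.23-fold lower. Groups without overlap were found for 7.28% of all genes tested in this comparison.

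Nsl1, transcribed away from Tatdn3 from a start 80 bases off, was near its detection limit and showed no such gap. It had 0.326, 0.719, 0.832 and 0.534 CPM in Hq-WT 1 to 4 and 0.713, 0.726, 0.710 and 0.667 CPM in Aifm1-WT 1 to 4. The Hq-WT libraries spanned the whole Aifm1-WT range, and the log2 fold change was -0.27 (SE 0.30). The summed counts were 40 in Hq-WT and 61 in Aifm1-WT, a ratio of 0.820 after scaling with a 95% exact counting interval of 0.536 to 1.24. That interval covers counting error only, not the spread between libraries, and differences inside it were not detectable at this depth.

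Catspere1 was nearly undetected in the Aifm1 stock. Hq-WT 1 to 4 had 191, 163, 100 and 89 counts, or 10.4, 8.37, 9.24 and 4.32 CPM, against counts of 1, 0, 1 and 0 in Aifm1-WT 1 to 4. Summed over groups these are 543 counts in Hq-WT and 2 in Aifm1-WT, a scaled ratio of 339 with a 95% exact interval from 93.5 to 2810 that covers counting error only. Catspere2 was expressed in both stocks, at 26.7, 21.8, 22.8 and 13.7 CPM in Hq-WT 1 to 4 and 2.95, 4.16, 3.99 and 3.07 CPM in Aifm1-WT 1 to 4. No library of either group reached the other's range, and the log2 fold change was 2.57 (SE 0.21), 5.95-fold higher in Hq-WT.

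The mutants, which share no library with the wild types, had the same order. Being littermates of those wild types and divided by stock in the same way, they are not independent of them. In Hq-mut over Aifm1-KI, 184 of 18499 genes (0.995%) were called. The same 4 members are among them, which again is a description, as the mutants were in view when the members were chosen. This contrast also carries the difference between the Aifm1 mutations. Ints7 was at 28.4, 29.9, 40.8 and 30.9 CPM in Hq-mut 1 to 4 and at 53.1, 51.0, 54.6 and 52.2 CPM in Aifm1-KI 1 to 4. Hq-mut 3 was the highest of the Hq libraries and still lay below the lowest knock-in. The log2 fold change was -0.73 (SE 0.12), and without Hq-mut 3, the library highest in striatal markers, -0.85. Aifm1-KI 2 and 4 also held striatal transcripts, and without Hq-mut 3 and both of these it was -0.89. Tatdn3 was at 8.13, 10.1, 12.6 and 9.33 CPM in Hq-mut 1 to 4 and at 22.0, 22.5, 22.9 and 22.0 CPM in Aifm1-KI 1 to 4, a log2 fold change of -1.18 (SE 0.14) or 2.27-fold lower. Hq-mut 3 was again the highest of its group, and the part of its other tissue in these values was not tested.

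Nsl1 in the mutants had 0.514, 0.516, 0.765 and 0.633 CPM in Hq-mut 1 to 4 and 0.475, 0.818, 0.838 and 0.698 CPM in Aifm1-KI 1 to 4. The groups overlapped, with a log2 fold change of -0.25 (SE 0.27). Catspere1 was at 13.6, 7.19, 9.27 and 9.96 CPM in Hq-mut 1 to 4, against counts of 0, 5, 0 and 2 in Aifm1-KI 1 to 4. The sums were 940 counts in Hq-mut and 7 in Aifm1-KI, a scaled ratio of 125 (95% exact interval 60.5 to 312). Catspere2 was at 29.4, 16.9, 22.9 and 24.0 CPM in Hq-mut 1 to 4 and at 4.65, 5.55, 3.77 and 4.36 CPM in Aifm1-KI 1 to 4. The gap between the groups was complete, with a log2 fold change of 2.30 (SE 0.19), or 4.94-fold higher in Hq-mut. Separation of this kind was seen for 14.3% of all genes tested between the mutants.

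**Figure D1:**
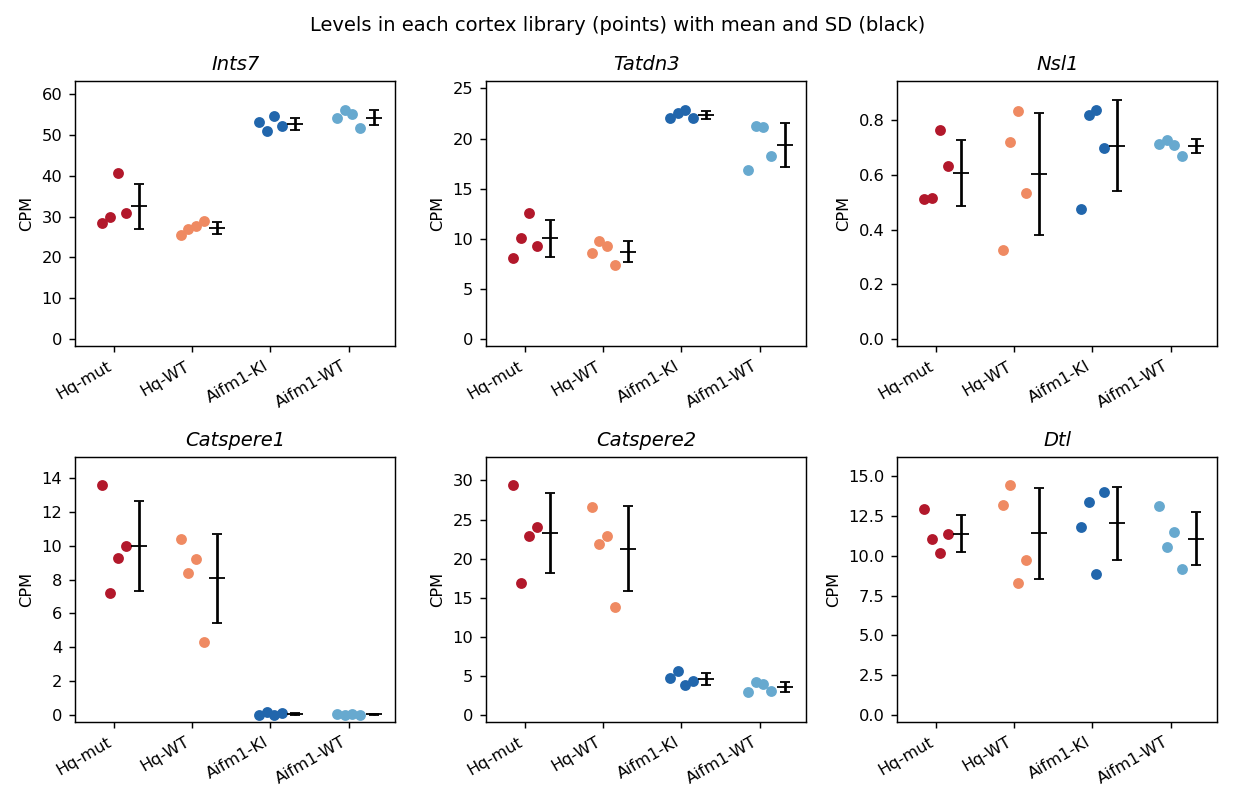
Levels (CPM, vertical axis) of the 5 members and of Dtl in the 4 libraries of each group, with replicates 1 to 4 from left to right and the group mean and SD in black. Ints7 and Tatdn3 sit lower, and Catspere1 and Catspere2 higher, in all 8 Hq libraries than in all 8 Aifm1 libraries, while Nsl1 (group means 0.603 to 0.707 CPM) and Dtl (11.08 to 12.04 CPM) overlap throughout.

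Ints7 averaged 32.5 ± 5.61 CPM in Hq-mut, 27.3 ± 1.49 CPM in Hq-WT, 52.7 ± 1.51 CPM in Aifm1-KI and 54.3 ± 1.88 CPM in Aifm1-WT (SD, n = 4 each). From the highest mean down, Aifm1-WT came before Aifm1-KI, then Hq-mut and then Hq-WT, and only the step between Aifm1-KI and Hq-mut was free of overlap. Tatdn3 averaged 10.04 ± 1.87 CPM in Hq-mut, 8.73 ± 1.03 CPM in Hq-WT, 22.4 ± 0.417 CPM in Aifm1-KI and 19.4 ± 2.19 CPM in Aifm1-WT (SD, n = 4 each). Aifm1-KI was highest, then Aifm1-WT, then Hq-mut and then Hq-WT, and only Hq-mut and Hq-WT overlapped. Catspere2 averaged 23.3 ± 5.10 CPM in Hq-mut, 21.3 ± 5.43 CPM in Hq-WT, 4.58 ± 0.741 CPM in Aifm1-KI and 3.54 ± 0.620 CPM in Aifm1-WT (SD, n = 4 each), in this order and with overlap inside each line and none between the lines. Catspere1 followed the same order, at 9.998 ± 2.66 CPM in Hq-mut and 8.08 ± 2.64 CPM in Hq-WT (SD, n = 4 each). Leaving out Aifm1-WT 1 and 2, which held liver transcripts, the log2 fold changes in wild types were -0.96 for Ints7, -1.17 for Tatdn3, 2.597 for Catspere2 and 8.01 for Catspere1. Leaving out Hq-WT 2, which held choroid plexus, they were -0.97, -1.20, 2.58 and 8.08. Leaving out Hq-mut 3 and Aifm1-KI 2 and 4, the libraries highest in striatal markers, those in mutants were -0.89 for Ints7, -1.32 for Tatdn3 and 2.44 for Catspere2. For Catspere1 the fitted value was then 10.7, set against counts of 0 in Aifm1-KI 1 and 3, and is neither a size nor a bound. Per kilobase of exon the members' levels ranked differently in the stocks: in Hq-WT they were 4.04 CPM for Catspere2, 3.73 for Ints7, 3.13 for Tatdn3, 2.74 for Catspere1 and 0.114 for Nsl1. In Aifm1-WT, Ints7 (7.41 CPM per kilobase) and Tatdn3 (6.95) stood above Catspere2 (0.673), Nsl1 (0.133) and Catspere1 (0.00866).

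Inside the Hq line the Catspere copies varied together. In Hq-mut both were highest in replicate 1 and lowest in replicate 2, and in Hq-WT both were highest in replicate 1 and lowest in replicate 4. Catspere1 took between 23.9% (Hq-WT 4, 95% exact binomial interval 19.7% to 28.6%) and 31.6% (Hq-mut 1, 28.7% to 34.6%) of the counts of both copies over the 8 Hq libraries. Over the 8 Aifm1 libraries its share was 0% in 4 libraries and at most 2.56% (5 counts beside 190 of Catspere2 in Aifm1-KI 2, interval 0.838% to 5.88%). The 0 of 45 counts in Aifm1-KI 3 allows a share of up to 7.87% by the same kind of interval. The counts of the copies thus differed between stocks by unequal factors, which is a description, as the members were chosen on the stock difference. Shared stretches limit these counts, and whether reads of either copy were placed on the other was not tested.

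Neither Aifm1 mutation moved a member past the test. These comparisons share their libraries with the contrasts between stocks on which the members were chosen. In Hq-mut over Hq-WT, edgeR called 3 of 17969 genes (0.0167%) and 0 of the 5 members, of which 0 had an unadjusted p under 0.05 (2.14% of all genes did). DESeq2 (0.0167% of all genes) and limma-voom (0.0111%) also called 0 members. The log2 fold changes were 0.23 (SE 0.14) for Ints7, 0.18 (SE 0.17) for Tatdn3, 0.02 (SE 0.34) for Nsl1, 0.29 (SE 0.28) for Catspere1 and 0.11 (SE 0.22) for Catspere2, with an edgeR adjusted p of 0.999985 for each. Hq-mut and Hq-WT overlapped for every member, while 1.58% of all genes did not, and without Hq-mut 3 the Ints7 value was 0.11. Libraries of the same number deviated together in this line. Within the 4 pairs, Hq-mut was above Hq-WT in 4 for Ints7, in 3 each for Tatdn3, Catspere1 and Catspere2 and in 2 for Nsl1. With the pairs as a block 0 members were called (Ints7 0.21, edgeR adjusted p = 0.635). The share of all genes called with the block is not given here, so this 0 is not read as a result about the members. In Aifm1-KI over Aifm1-WT, edgeR called 0 of 18383 genes (0%). An unadjusted p under 0.05 was found for 11.4% of them, while DESeq2 called 82 (0.446%) and limma-voom 0, and none of these tools called a member.

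Tatdn3 came nearest in the knock-in line. All 4 Aifm1-KI libraries (22.0 to 22.9 CPM) were above all 4 Aifm1-WT libraries (16.8 to 21.2 CPM), as 4.87% of genes separated in either direction, with a log2 fold change of 0.22 and SE 0.09 (edgeR unadjusted p = 0.0307, adjusted p = 0.415). Catspere2 had a log2 fold change of 0.40 (SE 0.17, edgeR unadjusted p = 0.0422, adjusted p = 0.427) with overlapping groups. Ints7 was at -0.03 (SE 0.05, edgeR adjusted p = 0.857) and Nsl1 at 0.02 (SE 0.22, edgeR adjusted p = 0.984). Catspere1, with 7 counts in Aifm1-KI and 2 in Aifm1-WT, fell below the filter on low counts and was not tested there.

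The difference between the mutation effects, Hq-mut over Hq-WT minus Aifm1-KI over Aifm1-WT, was called for 2 of 19129 genes (0.0105%) and 0 members by edgeR, with 0 members at an unadjusted p under 0.05 against 5.08% of all genes. DESeq2 (0.0261% of all genes) and limma-voom (0.00523%) called 0 members as well. On the log2 scale it was 0.26 (SE 0.14, edgeR adjusted p = 0.946) for Ints7, -0.04 (SE 0.18, adjusted p = 0.991) for Tatdn3, 0.01 (SE 0.39, adjusted p = 0.99987) for Nsl1 and -0.29 (SE 0.30, adjusted p = 0.961) for Catspere2. For Catspere1 it was -1.24 (SE 1.099, edgeR adjusted p = 0.960), which rests on the few counts of the Aifm1 stock. A missed threshold does not show that the effects were equal.

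**Figure D2:**
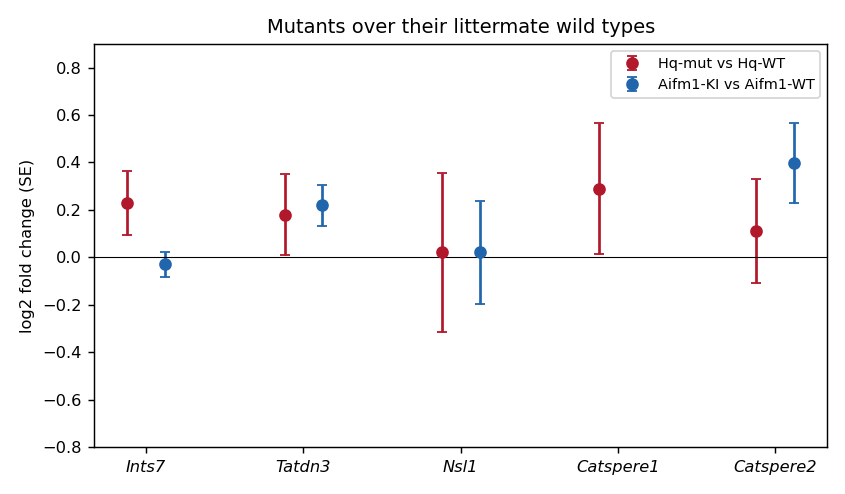
Log2 fold changes (vertical axis, bars are SE) of the members in Hq-mut over Hq-WT (red, left) and Aifm1-KI over Aifm1-WT (blue, right), from edgeR fits of 8 libraries each. All values lie between -0.03 and 0.40, none passed an adjusted p under 0.05, and Catspere1 has no point in the knock-in line because its counts were too low to test.

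The neighbouring genes were compared in the same way, to describe the stock difference along the chromosome. The neighbourhoods were picked with levels around the members already in view in these libraries, so the values below are no independent test. No neighbour passed the threshold. Within 1 Mb of a member, 102 other genes are annotated and 44 were tested in wild types (28 protein-coding), 17 around the Catspere copies and 27 around Ints7, Tatdn3 and Nsl1. In Hq-WT over Aifm1-WT edgeR called 0 of the 44 (0.558% of all genes), with a lowest adjusted p of 0.0764. At an unadjusted p under 0.05 there were 10 of 44 (22.7%, all genes 12.7%), DESeq2 called 4 (all genes 2.33%) and limma-voom 0 (all genes 0.602%). The median log2 fold change was 0.01 against 0.0046 over all genes, and the median size without sign 0.226 against 0.135.

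Between the mutants edgeR called 0 of 45 neighbours (0.995% of all genes), with a lowest adjusted p of 0.0516. The unadjusted count was 10 of 45 (22.2%, all genes 19.7%), DESeq2 called 5 (all genes 5.76%) and limma-voom 0 (all genes 1.07%). The median log2 fold change was -0.07 against 0.01, and the median size 0.182 against 0.216. Of the 44 neighbours tested in both stock contrasts, 33 (75%) had the same sign in each, against 12899 of 17916 genes (72.0%).

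The 3 neighbours described next were chosen after their values were seen. They were not in each contrast the nearest to the edgeR threshold: in wild types Desi2 (0.34, edgeR adjusted p = 0.118) came before Kcnh1 (edgeR adjusted p = 0.156). Gm10516 is annotated as an antisense gene at 192136896 to 192151026, beyond Ints7 with other tested genes between them. It overlaps the start of Rcor3 (192098546 to 192138062) on the other strand, and without the strand option reads of that stretch may be mixed. Gm10516 was at 2.85 ± 0.687 CPM in Hq-WT and 5.18 ± 0.478 CPM in Aifm1-WT (SD, n = 4 each). The log2 fold change was -0.88 with SE 0.19 (edgeR adjusted p = 0.0764, DESeq2 adjusted p = 0.00518). In Hq-mut it was at 3.32 ± 0.608 CPM and in Aifm1-KI at 5.53 ± 0.222 CPM (SD, n = 4 each), a log2 fold change of -0.77 (SE 0.17, DESeq2 adjusted p = 0.00331). Kcnh1, a voltage-gated potassium channel gene, had a log2 fold change of 0.38 (SE 0.10) in wild types and of 0.84 (SE 0.17, edgeR adjusted p = 0.0516) in mutants. Gm32200 was at -1.07 (SE 0.25) in wild types and -1.05 (SE 0.25) in mutants. These 3 were called by DESeq2 in both stock contrasts and by the main edgeR fit in neither.

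**Figure D3:**
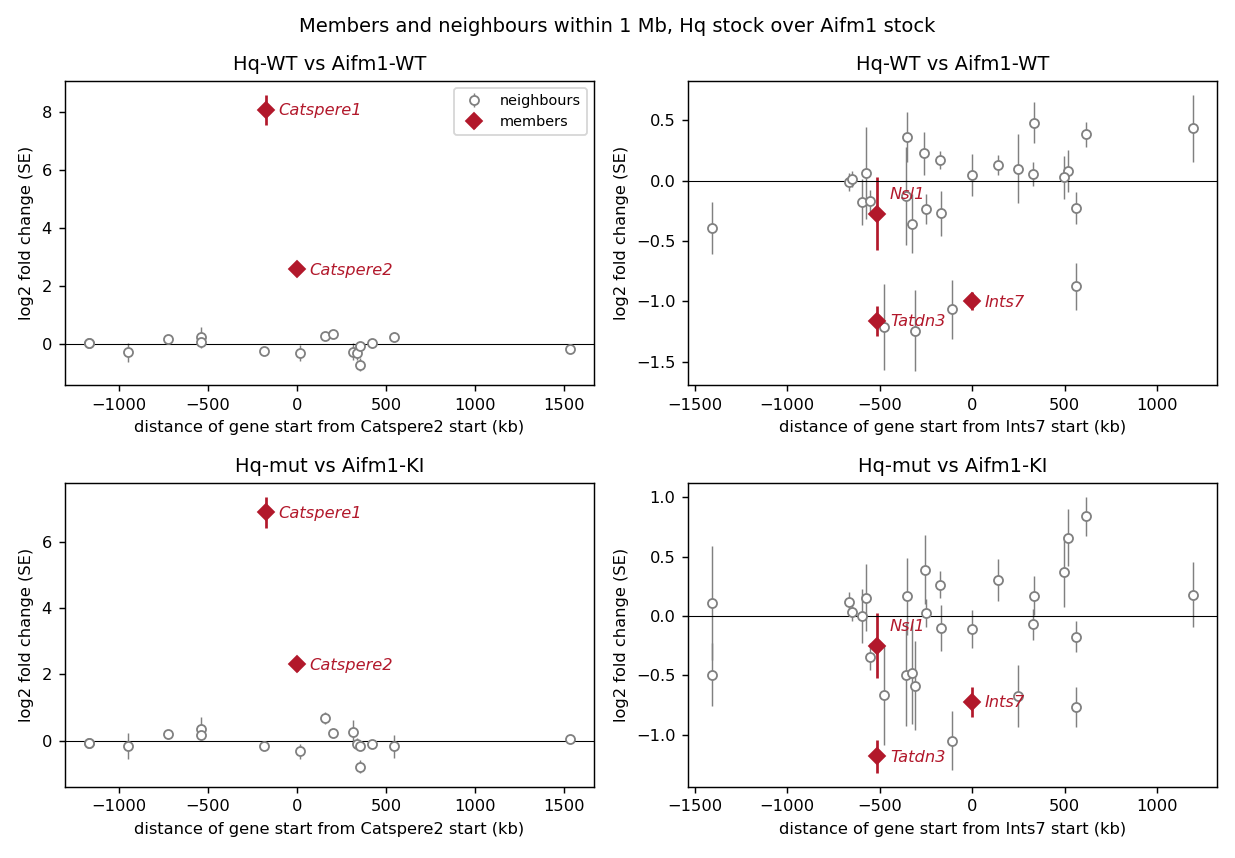
Log2 fold changes (vertical axis, bars are SE) of members (red diamonds) and of tested neighbours within 1 Mb (open circles) against the distance of each gene's start from that of Catspere2 (left) or Ints7 (right) in kilobases, for Hq-WT over Aifm1-WT (top) and Hq-mut over Aifm1-KI (bottom). The Catspere copies stand at 2.30 to 8.08 while their neighbours lie within 0.790 of 0. Ints7 and Tatdn3 lie among neighbours of either sign, which run from -1.24 (Gm37168) to 0.48 (1700034H15Rik) in wild types. Gm10516 is at -0.88 and -0.77.

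The divergent partners were read against each other inside each library, which removes library size. Ints7 and Tatdn3 were chosen on the stock difference, so ratios that differ between the stocks carry that choice. They are a description and no test, and the share of other gene pairs that separate in this way was not counted. Dtl was at 13.2, 14.4, 8.32 and 9.71 CPM in Hq-WT 1 to 4 and 13.1, 10.6, 11.5 and 9.17 CPM in Aifm1-WT 1 to 4, with log2 fold changes of 0.05 (SE 0.17) in wild types and -0.11 (SE 0.16) in mutants, neither called by edgeR. The ratio of Ints7 to Dtl was 2.90 ± 0.776 in Hq-mut and 2.53 ± 0.740 in Hq-WT, and 4.54 ± 1.12 in Aifm1-KI and 4.97 ± 0.662 in Aifm1-WT (SD, n = 4 each). The ratio of Tatdn3 to Nsl1 was 16.6 ± 2.10 in Hq-mut and 16.2 ± 6.78 in Hq-WT, and 33.2 ± 8.98 in Aifm1-KI and 27.5 ± 2.79 in Aifm1-WT (SD, n = 4 each). Ints7 to Tatdn3, the pair that differed in the same direction, gave 3.25 ± 0.223 in Hq-mut and 3.17 ± 0.522 in Hq-WT, and 2.36 ± 0.0646 in Aifm1-KI and 2.83 ± 0.280 in Aifm1-WT (SD, n = 4 each). The ratio of Ints7 to Dtl was at most 3.32 in Hq-WT and at least 4.13 in Aifm1-WT, but overlapped in the mutants, with up to 4.01 in Hq-mut and down to 3.71 in Aifm1-KI. The ratio of Tatdn3 to Nsl1 was at most 19.6 in Hq-mut and at least 27.3 in Aifm1-KI, but overlapped in the wild types, with up to 26.2 in Hq-WT and down to 23.6 in Aifm1-WT.

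**Figure D4:**
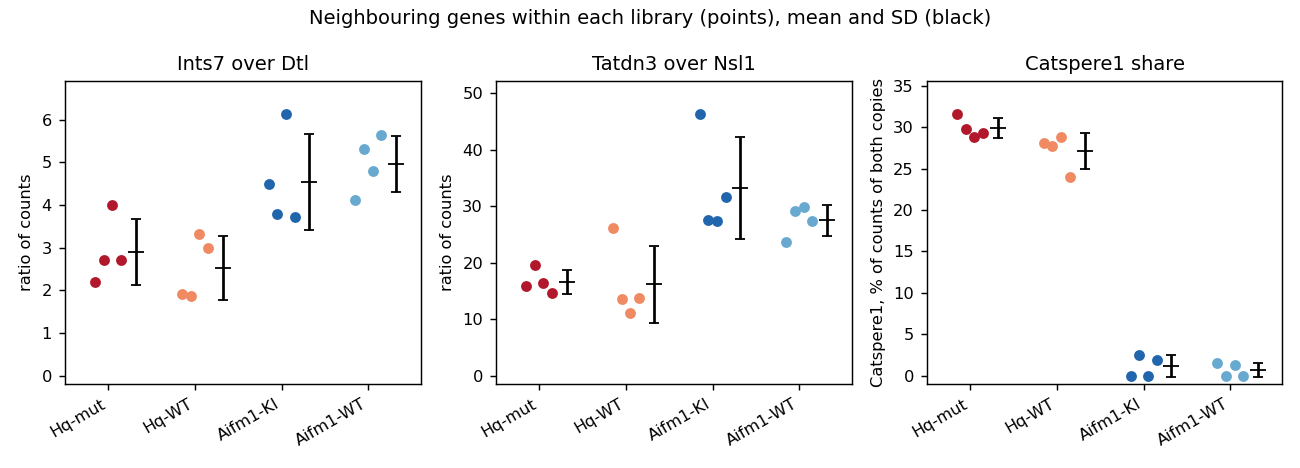
Ratio of counts of Ints7 to Dtl (left) and of Tatdn3 to Nsl1 (middle), and Catspere1 as a percent of the counts of both Catspere copies (right), in each library by group, with mean and SD in black. The Catspere1 share is 23.9% to 31.6% in the Hq line and 0% to 2.56% in the Aifm1 line, and the ratios of Ints7 to Dtl average 2.53 to 2.90 in the Hq groups and 4.54 to 4.97 in the Aifm1 groups.

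On the rest of chromosome 1, members left out, edgeR called 13 of 1145 genes tested in wild types (1.14%, all genes 0.558%) and 13 of 1171 in mutants (1.11%, all genes 0.995%). Of the 30 genes called in both stock contrasts (29.7% of the 101 and 16.3% of the 184), 7 lie on chromosome 1, namely 4 members and Gm28438, Nvl and Srp9, which were named after their values were seen. Nvl, a ribosome biogenesis ATPase gene, and Srp9, a signal recognition particle gene, lie at 181087138 to 181144204 and 182124737 to 182132407, between the neighbourhoods. Nvl had log2 fold changes of -1.17 (SE 0.21, edgeR adjusted p = 0.0383) in wild types and -1.54 (SE 0.09, edgeR adjusted p = 0.000127) in mutants. Srp9 had -0.89 (SE 0.14, edgeR adjusted p = 0.0260) and -0.92 (SE 0.18, edgeR adjusted p = 0.0493). Pld5, a phospholipase D family gene at 175962306 to 176275312 before Catspere1, was called in wild types (1.12, SE 0.17, edgeR adjusted p = 0.0207) and not in mutants (0.26, SE 0.37). The difference between these contrasts, which is also that of the mutation effects, was -0.87 (SE 0.44, edgeR adjusted p = 0.946).

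No partner of the members in their complexes or families was called. Each list left the member out, and edgeR called 0 of its other genes in each of the 5 comparisons. For Integrator, all 13 other subunits listed were tested, with a median log2 fold change of -0.01 and a range of -0.14 to 0.23 in wild types (all genes 0.0046) and a median of -0.03 and a range of -0.37 to 0.47 in mutants (all genes 0.01). The smallest p belonged to Ints1 in wild types (-0.14, SE 0.07, edgeR adjusted p = 0.404) and to Ints12 in mutants (0.47, SE 0.15, edgeR adjusted p = 0.150). At an unadjusted p under 0.05 there were 0 of 13 in wild types (all genes 12.7%) and 3 of 13 in mutants (all genes 19.7%). Both TatD relatives were tested, Tatdn2 having the smaller p at 0.13 (SE 0.07, edgeR adjusted p = 0.502) in wild types and 0.27 (SE 0.10, edgeR adjusted p = 0.186) in mutants.

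Of 9 KMN genes listed beside Nsl1, 7 were tested, with medians of -0.23 in wild types and -0.07 in mutants. Nuf2, an outer kinetochore subunit gene also on chromosome 1 but outside both neighbourhoods (169497934 to 169531464), had the smallest p, at -1.44 (SE 0.28, edgeR adjusted p = 0.0528) in wild types and -1.07 (SE 0.36, edgeR adjusted p = 0.162) in mutants. Its mean was 0.948 CPM in Hq-mut and 0.676 CPM in Hq-WT, and 1.93 CPM in Aifm1-KI and 1.79 CPM in Aifm1-WT. Summed proliferation markers were low in every library, at 3.11 to 9.45 CPM.

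Other CatSper channel genes averaged at most 5.01 CPM in any group, and several were nearly undetected. In Aifm1-WT, Catsperz (4.46 CPM) and Catsper2 stood above Catspere2 (3.54 CPM). In Aifm1-KI, Catsperz (3.47 CPM) was below Catspere2 (4.58 CPM) and Catsper2 above it. Of 13 further channel genes, 5 were tested in wild types and 4 in mutants, with medians of -0.20 and -0.42. The pore subunit gene Catsper2 averaged 4.11 CPM in Hq-mut and 4.69 CPM in Hq-WT, and 5.01 CPM in Aifm1-KI and 4.42 CPM in Aifm1-WT, and another pore gene, Catsper1, had 1 count over all 16 libraries. Catsperd had the smallest p in wild types (-0.73, SE 0.34, edgeR adjusted p = 0.399) and Catsperg1 in mutants (-1.24, SE 0.28, edgeR adjusted p = 0.0686), both with lower values in the Hq stock, against the direction of the Catspere copies. Testis germ cell markers were at or near 0 in every library: the 10 markers summed to between 0 and 0.437 CPM, and Tnp1, Akap4, Pgk2 and Smcp were at 0 in all 16.

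Within the lines and for the difference of effects, 0 list genes were called, where hardly any gene was (0.0167% in the Hq line, 0% in the knock-in line and 0.0105% for the difference). In Hq-mut over Hq-WT the smallest p of each list fell to Ints10 (-0.25, SE 0.10), Spc24 (0.56, SE 0.33), Tatdn2 (0.09, SE 0.10) and Catsper2 (-0.21, SE 0.18), each with an edgeR adjusted p of 0.999985. In Aifm1-KI over Aifm1-WT it fell to Ints2 (0.21, SE 0.12), Pmf1 (-0.31, SE 0.13), Tatdn1 (0.12, SE 0.11) and Catsperg1 (0.61, SE 0.27), with edgeR adjusted p between 0.424 and 0.668. For the difference of the effects it fell to Ints10 (-0.31, SE 0.12), Spc24 (0.34, SE 0.38), Tatdn2 (0.13, SE 0.11) and Catsper2 (-0.40, SE 0.20), with edgeR adjusted p between 0.946 and 0.963.

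**Figure D5:**
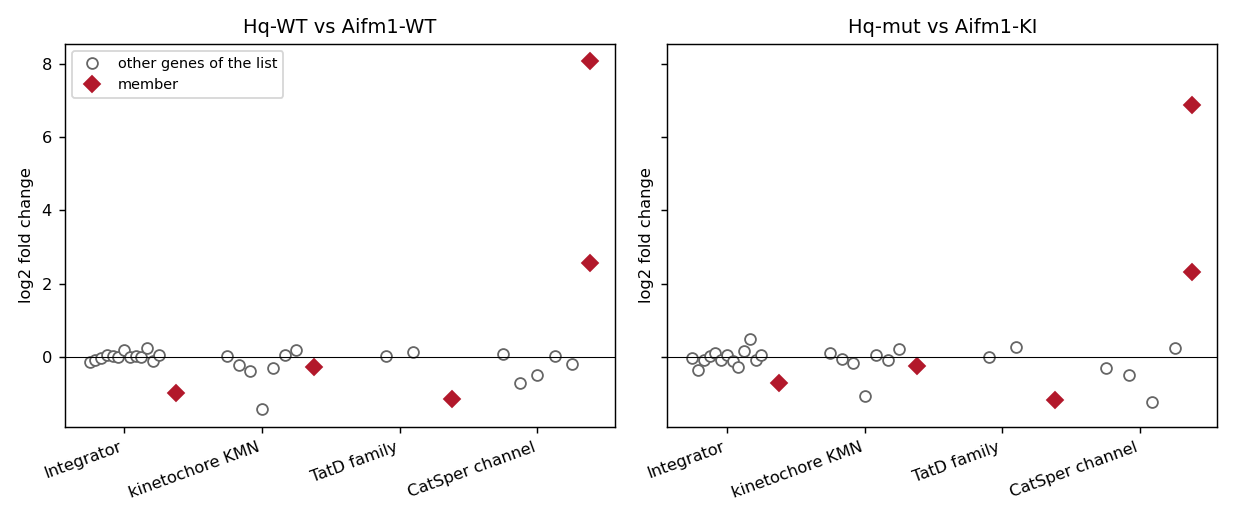
Log2 fold changes (vertical axis) between stocks for each member (red diamonds) and the other tested genes of its list (open circles, in list order), in Hq-WT over Aifm1-WT (left) and Hq-mut over Aifm1-KI (right). Integrator genes lie between -0.37 and 0.47 beside Ints7 at -0.999 and -0.73, and the CatSper genes other than the Catspere copies lie between -1.24 and 0.24.

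The genes most like each member were found by the root mean square difference of log2 CPM over the 16 libraries, after centring each gene, among 16026 genes with a mean log2 CPM of at least 0. The 16 values share library and depth, and the measure takes in the stock difference on which the members were chosen. For Ints7, whose own SD was 0.448, the nearest were Gm10516 (0.179), Xrcc3 on chromosome 12 (0.201) and Pld4 on chromosome 12 (0.214). Tatdn3 (own SD 0.605) had Ints7 as nearest (0.215), then Igdcc3 on chromosome 9 (0.254) and Evpl on chromosome 11 (0.280). Gm10516 lies in the neighbourhood of Ints7 and Tatdn3. Ints7 was itself chosen on the stock difference, so its nearness to Tatdn3 is part of that choice and no test of position. The nearest genes to the other members, given next, lay outside their neighbourhoods.

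For Catspere2 (own SD 1.25) the nearest were Dnah8 on chromosome 17 at 30624354 to 30877365 (0.553), Gm11814 on chromosome 4 (0.561) and Sfrp1 on chromosome 8 (0.577). Dnah8, an axonemal dynein heavy chain gene, averaged 3.95 CPM in Hq-mut and 2.22 CPM in Hq-WT, and 0.642 CPM in Aifm1-KI and 0.557 CPM in Aifm1-WT. For Catspere1 (own SD 3.08) no gene came close: AC165951.1, just beyond Dnah8 at 30920338 to 30963220, was nearest at 1.37, followed by Cacng6 on chromosome 7 (1.53) and Gm35021 on chromosome 8 (1.56). AC165951.1 averaged 20.5 CPM in Hq-mut and 13.7 CPM in Hq-WT, and 0.0314 CPM in Aifm1-KI and 0.0111 CPM in Aifm1-WT. Nsl1 (own SD 0.301) had Cavin2 (0.193), Ttc39a (0.200) and Tmem123 (0.204) as nearest, values not far below its own SD.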

How the data were processed

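Cortical RNA of 16 libraries was measured. The authors deposited raw read counts, whole numbers with 1 row per Ensembl gene ID. Per the series' design text, adapters and low-quality reads were removed and 51-base single-end reads were mapped to mm10 with STAR and counted with htseq-count, and edgeR was the authors' tool for differential expression. STAR's version is 2.6 per the submitters' processing notes, which also name SAMtools and HTSeq. Their versions, the annotation and the strand option are likewise not given in the sources used here. Without strand, reads of a member and an overlapping gene cannot be told apart. In GENCODE M21 the genes inside or across from members share no exon base with them. In RefSeq the gene spans of Tatdn3 (up to 191063075) and Nsl1 (from 191062996) overlap at their starts. Of 55573 gene IDs, 55394 matched a symbol in GENCODE M21, and 0 rows had no gene ID.

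The members, lists and tests were chosen with earlier results of these data known. Each comparison used edgeR 4.0.16 in R 4.3.3 (TMM factors, default filter on low counts by group, quasi-likelihood F-test, Benjamini-Hochberg over all genes tested, called under 0.05), with separate fits of 8 libraries and the difference of effects fitted on all 16. SE is the size of the log2 fold change over the root of F. Centred and marker log2 CPM used a prior count of 2. Alternatives were size factors by median of ratios, no filter, DESeq2 1.42.0, limma-voom (limma 3.58.1), the replicate block, each library left out, libraries with other tissue left out together and 2 other neighbourhood widths (0.5 and 2 Mb). Named are the members, called neighbours (up to 5 per direction), up to 4 called genes of each list or the one with the smallest p, 3 genes most like each member, and Aifm1; others are marked as chosen after their values were seen. Libraries with the same number deviated together in Hq-mut and Hq-WT (correlations 0.440 to 0.571 over 4 pairs, each library best with its own number), so the numbers pair these libraries; the main fit is without the block and the fit with it an alternative. Other comparisons had correlations of -0.164 to 0.153. Chi-square statistics between replicates showed no copied library. The scripts were tested on simulated counts. Promoter sequences are RefSeq's.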

Additional observations from a re-analysis of the deposited data

How the results depend on the processing

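Members called stayed at 0 in each within-line comparison and in the difference of effects under every alternative run, the replicate block included (Hq-mut over Hq-WT in pairs: Ints7 0.21, edgeR adjusted p = 0.635). The main fits called only 0.0167% of all genes in the Hq line, 0% in the knock-in line and 0.0105% for the difference. A count of 0 among 5 members therefore says little about them, and Catspere1 was not tested in the main knock-in fit. The block changed no count of members called in these comparisons or of neighbours called in the stock contrasts. Neighbours called, 0 in both stock contrasts, were more under some settings. In Hq-WT over Aifm1-WT they were 3 without the filter (Gm10516, Gm32200, Kcnh1), 4 with DESeq2 (these and Desi2) and 1 within 2 Mb (Pld5), and 0 to 1 with each library left out (Kcnh1 without Hq-WT 3, Gm10516 without Hq-WT 4). In Hq-mut over Aifm1-KI they were 1 without the filter (Kcnh1), 5 with DESeq2 (Gm10516, Gm32200, Kcnh1, Gm8010, Gm38300), and 0 to 2 with each library left out (Kcnh1 and Gm38300 without Hq-mut 2). The cause was not tested. The members' stock differences reversed in 0 of 140 alternatives. As the members were chosen on these differences and the alternatives share libraries, this count is no test of them. Small within-line values changed sign: over the libraries left out in turn, Nsl1 ran from -0.19 to 0.18 and Catspere2 from -0.050 to 0.25 in Hq-mut over Hq-WT, and Nsl1 from -0.092 to 0.15 in Aifm1-KI over Aifm1-WT. Without Aifm1-KI 2 and 4 and Aifm1-WT 1 and 2 together, Ints7 was at 0.025 and Nsl1 at -0.12 there. The Catspere1 fold change between stocks moved with its few counts in the Aifm1 stock, to 7.54 with limma-voom and 8.59 without Aifm1-WT 3 in wild types, and in mutants to 7.84 without Aifm1-KI 2 and 10.7 without Aifm1-KI 2 and 4 and Hq-mut 3 together, which leaves 0 counts in Aifm1-KI. Depth limits Nsl1 (6 to 28 counts a library) and Catspere1 in the Aifm1 stock.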
